A study of Homo sapiens with 2 samples.

Results

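AP-1 is a family of paired transcription factors, and its genes overlap with the immediate early genes, whose mRNAs appear within minutes of a growth or stress signal. In the data described here, 10 of these genes were followed in RNA that associates with CNBP, an RNA- and DNA-binding protein with CCHC zinc fingers. They were named as a set, with earlier results of these data known: JUN, JUNB, JUND, FOS, FOSL1, FOSL2, ATF3, EGR1, IER2 and IER3. All 10 had a row, and each had 1 row, among the 10836 rows of protein-coding genes in the deposited table. That table holds no gene scarce in both samples, and no other threshold on a measured value was applied to the members.

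The cells were HCT116, an established human colon cancer line, with no treatment besides ultraviolet light at 254 nm and 200 mJ per cm2, which links proteins to the RNA they touch. The CNBP RIP library holds RNA precipitated from sonicated lysate with a CNBP antibody on beads, and the input library holds RNA labelled only as input. There was 1 library of each kind, so no difference below has a replicate check, a spread or a test. A precipitate with a control antibody was not analysed here, so how much of each mRNA the beads would retain without CNBP is not known.

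Levels are FPKM, fragments per kilobase of transcript and per 1000000 mapped fragments, which are per length and can be compared between genes. The log2 ratio is log2(RIP FPKM + 1) - log2(input FPKM + 1), and a positive ratio means a higher level in CNBP RIP. Ratios were read by 2 rules of size, 4-fold (a log2 ratio of at least 2) and about 1.5-fold (at least 0.58), in either direction. The FPKM summed to 109684 for CNBP RIP, against 214387 in input RNA, and the number of reads behind these values is not known. A gene is called listed at 0 where the table holds 0, with no detection limit implied, since 1050 rows in CNBP RIP and 181 in input RNA were at 0. Of 11 epithelial markers, 8 had a row, with summed levels of 755 FPKM in CNBP RIP and 1504 FPKM in input RNA. EPCAM, the epithelial adhesion molecule, had 21.2 FPKM in CNBP RIP and 109 FPKM in input RNA. The keratin genes KRT18 (564 FPKM), KRT8 (433 FPKM) and KRT19 (371 FPKM) were the highest of them in input RNA. In contrast, input RNA had 4.68 FPKM for CDX2 and 0.415 FPKM for CDH1, and CLDN3 was listed at 0. CLDN4 had 21.8 FPKM in input RNA and was listed at 0 in CNBP RIP, and LGALS4, CDX1 and VIL1 had no row. Of 12 markers of blood, stromal and other cells, 4 had a row, with summed levels of 7.10 FPKM in CNBP RIP and 18.1 FPKM in input RNA. The highest of these 4 was COL1A1 in CNBP RIP (4.92 FPKM) and CD68 in input RNA (15.9 FPKM).

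JUN, JUNB and JUND encode leucine zipper proteins that pair with each other or with the FOS proteins FOS, FOSL1 and FOSL2, and the pairs bind a short DNA element. ATF3 is a related leucine zipper factor induced by stress. EGR1 is a zinc finger factor, IER2 a nuclear protein and IER3 a small protein linked to cell survival, and all belong to the fast response to growth factors. Transcription of many immediate early genes is switched on by MAP kinases through the serum response factor SRF and its partners. Their mRNAs are typically short and short-lived, and several carry AU-rich elements that recruit decay factors. In epithelial tumors, FOSL1 and JUN family members act downstream of RAS and RAF signaling.

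CNBP is known to prefer G-rich RNA with a GGAG core. The study looked for such sequences in the untranslated region at the start of CCND1 mRNA and in the noncoding RNA LAST, and tested their binding to CNBP. It also gave the share of all sequences enriched in CNBP RIP that held GGAG. Here a narrower search was made, of the first 50 transcribed bases after the gene start in RefSeq (GRCh38.p14), on the transcribed strand only. Windows were matched by symbol for 8 of the 10 members, and FOSL1 and IER3 were not matched. GGAG was present in the windows of 5 members, namely JUN, JUNB, JUND, EGR1 and IER2. The stretches of 30 bases that hold these matches, and the first 30 bases of FOS and FOSL2, are shown with each GGAG in capitals to let the presence of the core be set against the ratios given later.
JUND, bases 1 to 30 (chr19:18281593-18281622, minus strand): aGGAGccgccgccagtGGAGggccgggcgc
JUNB, bases 21 to 50 (chr19:12791506-12791535, plus strand): gccagcctcGGAGccagcagGGAGctggga
JUN, bases 21 to 50 (chr1:58783998-58784027, minus strand): tggctgaagcagcgaggcgGGAGtGGAGgt
EGR1, bases 14 to 43 (chr5:138465492-138465521, plus strand): gcgcagaacttggGGAGccgccgccgccat
IER2, bases 21 to 50 (chr19:13150431-13150460, plus strand): tagggggcggtgtcGGAGttctgtctgggc
FOS, bases 1 to 30 (chr14:75278828-75278857, plus strand): aaccgcatctgcagcgagcatctgagaagc
FOSL2, bases 1 to 30 (chr2:28392858-28392887, plus strand): gtagtgactcatctcgggcagagcgctagg

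The 3 JUN genes each held GGAG at 2 positions, and EGR1 and IER2 at 1. The longer form TGGAG, which contains GGAG, was found once in JUND and once in JUN. FOS, FOSL2 and both windows of ATF3 held no GGAG in these 50 bases, which says nothing of the rest of the mRNA. GGAG was present in 36.6% of all 35116 RefSeq windows of this length and in 42.62% of the 12169 windows of genes in the table, so that the motif is common. TGGAG was in 10.28% of all windows. Among genes of the table with a window, the 4333 with GGAG had a median log2 ratio of 0.41 and the 4037 without it 0.13. Of these groups, 13.34% and 11.17% were at least 4-fold higher. The genes with GGAG were also longer, with a median of 32150 bases from start to end against 28821. A gene with several windows was placed with GGAG if any of them held it. The part of either in the gap was not tested. The starts of the windows come from RefSeq on another build than the one behind the FPKM, and the transcripts that the authors counted may start elsewhere.

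JUND gave the highest level of the set in CNBP RIP. JUND (ENSG00000130522.5_2; hg19, chromosome 19, 18390570 to 18392432, minus strand), which encodes the JUN protein that tends to be present in resting cells, had 256 FPKM in CNBP RIP and 16.4 FPKM in input RNA. Its log2 ratio was 3.88, or 14.7-fold on the FPKM plus 1 scale, and 98.8% of all rows had a lower ratio. JUND was the 37th most abundant of the 10836 rows in CNBP RIP and the 1719th in input RNA. The JUND ratio stayed above the 4-fold rule under every alternative setting, between 3.60 and 4.998.

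**Figure D1:**
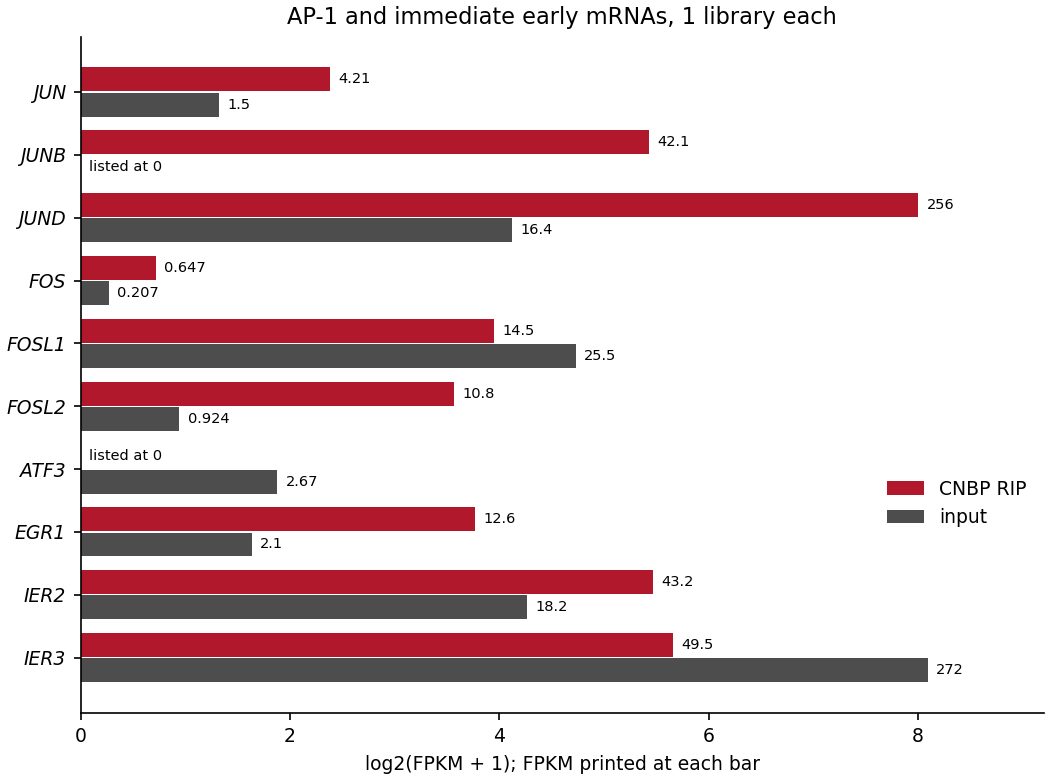
Levels of the 10 mRNAs as bars of log2(FPKM + 1), red for CNBP RIP and gray for input, with the FPKM beside each bar (1 library each, so there are no error bars). JUND stands out in CNBP RIP at 256 FPKM and IER3 in input RNA at 272 FPKM, and JUNB and ATF3 are each listed at 0 in 1 library.

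JUNB encodes the JUN protein that often restrains the activity of JUN. JUNB (ENSG00000171223.5_1; chromosome 19, 12902310 to 12904129, plus strand) had 42.1 FPKM in CNBP RIP and was listed at 0 in input RNA, which leaves its fold undefined. Of 181 genes listed at 0 in input RNA, JUNB had the 2nd highest level in CNBP RIP. A value of 0 in input RNA was rare at this level, with 2 such genes, JUNB included, among the 397 that had 30 to 60 FPKM in CNBP RIP. Of the 21 genes at 0 in input RNA with at least 10 FPKM in CNBP RIP, 17, JUNB included, were among the shortest 10% of genes by span. The JUNB locus also lies inside that of HOOK2 on the opposite strand (12873817 to 12983554), and HOOK2, which encodes a microtubule linker protein, had 39.1 FPKM in CNBP RIP and 2.74 FPKM in input RNA. The library kit keeps strand, but whether the FPKM were computed with it is not stated in these sources, so reads of the pair may not be told apart. The part of this overlap in the JUNB value was not tested.

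JUN, the founding member of the family, was far less abundant than JUND. JUN (ENSG00000177606.6_1; chromosome 1, 59246460 to 59249999, minus strand) had 4.21 FPKM in CNBP RIP and 1.505 FPKM in input RNA, a log2 ratio of 1.06 or 2.08-fold. As deposited it passed the 1.5-fold rule but not the 4-fold rule, with 70.6% of all rows below it. Both calls depended on the setting, since the ratio of JUN was 0.50 with a pseudocount of 5, 2.30 with both libraries at a sum of 1000000 and 2.17 against genes of like span. Summed, the 3 JUN genes had 302 FPKM in CNBP RIP and 17.9 FPKM in input RNA. JUND made up 84.7% of that sum in CNBP RIP and 91.6% in input RNA, and JUNB made up 13.9% in CNBP RIP. Within the family the order of levels was JUND, JUNB and JUN in CNBP RIP, and JUND, JUN and JUNB in input RNA.

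The FOS genes did not share a direction. FOSL2 (ENSG00000075426.11_2; chromosome 2, 28615315 to 28640179, plus strand), which encodes the FOS-related protein FRA-2, had 10.8 FPKM in CNBP RIP and 0.924 FPKM in input RNA. Its log2 ratio was 2.62, or 6.15-fold. With so low a level in input RNA the pseudocount counts here too, as the ratio of FOSL2 was 3.42 with a pseudocount of 0.1 and 1.42, short of the 4-fold rule, with one of 5. FOSL1 (ENSG00000175592.8_2; chromosome 11, 65659520 to 65668044, minus strand), which encodes FRA-1, had 14.5 FPKM in CNBP RIP and 25.5 FPKM in input RNA, a log2 ratio of -0.78. FOSL1 was therefore 1.72-fold higher in input RNA as deposited, but its sign turned after the libraries were rescaled to the same sum (0.14). FOS (ENSG00000170345.9_2; chromosome 14, 75745477 to 75748933, plus strand) was scarce, with 0.647 FPKM in CNBP RIP and 0.207 FPKM in input RNA, a log2 ratio of 0.45 that passed neither rule. At such levels the pseudocount sets most of the ratio.

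The makeup of the FOS family differed between the libraries. As deposited, the 3 FOS genes summed to 25.9 FPKM in CNBP RIP and to 26.7 FPKM in input RNA, which was 0.0236% of all FPKM in CNBP RIP and 0.0124% in input RNA. FOSL1 made up 55.7% of that sum in CNBP RIP and 95.8% in input RNA, and FOSL2 made up 41.8% in CNBP RIP and 3.46% in input RNA. These shares within a library do not depend on how the libraries are scaled. Over both families and ATF3, JUND was the most abundant mRNA in CNBP RIP with 78.0% of the summed FPKM, whereas FOSL1 was the most abundant in input RNA with 54.1%.

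ATF3 (ENSG00000162772.16_1; chromosome 1, 212738676 to 212794119, plus strand) was listed at 0 in CNBP RIP and had 2.67 FPKM in input RNA. A value of 0 in CNBP RIP was less rare than in input RNA. It was found for 191 of the 1388 genes (13.8%), ATF3 included, that had 2 to 4 FPKM in input RNA. Therefore no fold is given for ATF3 either.

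EGR1 (ENSG00000120738.7_1; chromosome 5, 137801179 to 137805004, plus strand) had 12.6 FPKM in CNBP RIP and 2.10 FPKM in input RNA. The log2 ratio of EGR1 was 2.13, or 4.39-fold, close above the 4-fold rule. It fell short of that rule with a pseudocount of 5 (1.31) and after centering on the median of all genes (1.85), and passed it in the other settings run. IER2 (ENSG00000160888.6_1; chromosome 19, 13261229 to 13265722, plus strand) had 43.2 FPKM in CNBP RIP and 18.2 FPKM in input RNA, a log2 ratio of 1.20 or 2.30-fold. The start of IER2 lies 31 bases from the locus of STX10 on the opposite strand, and STX10 had 60.6 FPKM in CNBP RIP and 57.9 FPKM in input RNA.

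IER3 ran the other way. IER3 (ENSG00000137331.11_1; chromosome 6, 30710976 to 30712331, minus strand) had 49.5 FPKM in CNBP RIP, against 272 FPKM in input RNA, where it was the most abundant member and the 155th of all rows. Its log2 ratio was -2.43, or 5.40-fold higher in input RNA. It was still the 2nd most abundant member in CNBP RIP, after JUND. Of the summed FPKM of the 10 members, IER3 made up 11.4% in CNBP RIP and 80.1% in input RNA, and JUND made up 59.0% in CNBP RIP and 4.83% in input RNA. IER3 was below 0 in every setting run, but short of the 4-fold rule with both libraries brought to one sum (-1.48) and against genes of like span (-1.32).

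By the 4-fold rule, 4 of the 10 members were higher in CNBP RIP (JUNB, JUND, FOSL2 and EGR1), where 12.5% of all rows were, and 1 was lower (IER3), where 13.5% were. Without JUNB and ATF3, which were each at 0 in 1 library, 3 of 8 were at least 4-fold higher and 1 lower. By the 1.5-fold rule, 6 members were higher, with JUN and IER2 added, where 42.6% of all rows were, and 3 were lower (FOSL1, ATF3 and IER3), where 34.7% were. The median ratio of the members was 1.13, and that of all rows was 0.28. With both libraries brought to one sum, the mean of the 2 sums, the median row was at 0.85, and 22.6% of rows were at least 4-fold higher and 8.18% lower. At 1.5-fold these shares were 56.8% and 24.5%. The members then had a median of 1.94, with 5 at least 4-fold higher and 0 lower. With ratios centered on the median row, 34.3% of rows were at least 1.5-fold higher and 39.1% lower, and the counts of members at that rule were again 6 and 3.

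**Figure D2:**
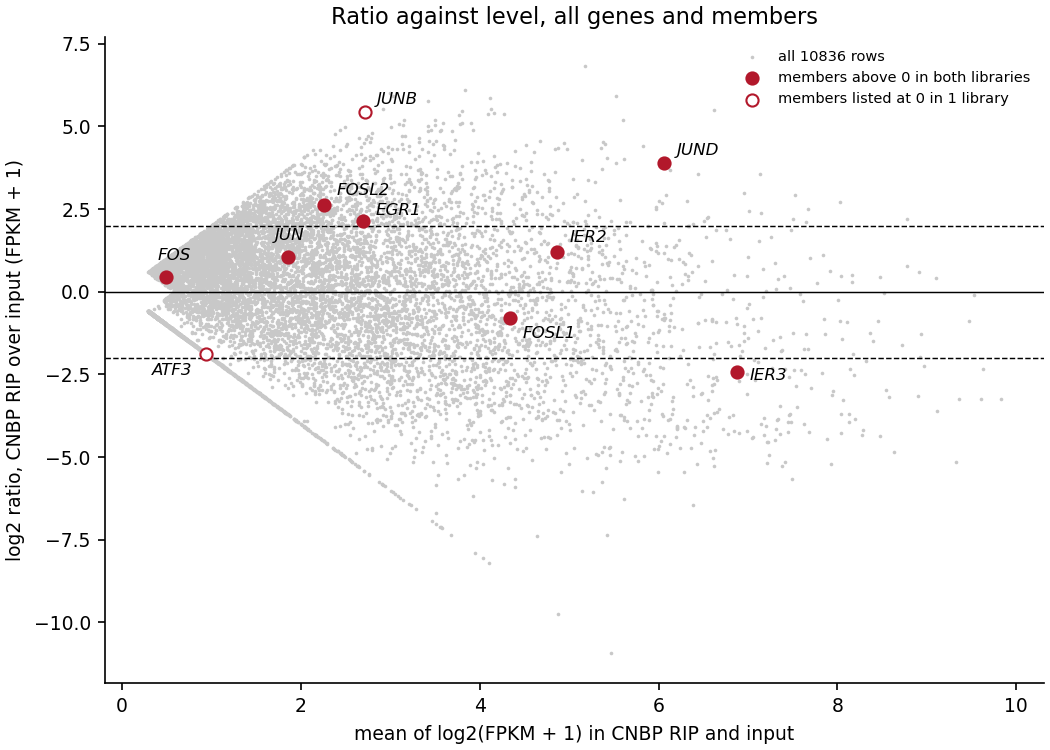
Log2 ratio of CNBP RIP over input against the mean of log2(FPKM + 1) in both libraries, for all 10836 rows (gray) and the 10 members (red, open where 1 library is listed at 0), with dashed lines at the 4-fold rule. JUND combines a high level with a ratio of 3.88, whereas IER3, of similar mean level, lies at -2.43.

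Gene size moved with the ratio across the table, and most members are small. The span, from start to end of the locus, was 1356 bases for IER3, 1820 for JUNB, 1863 for JUND, 3457 for FOS, 3540 for JUN, 3826 for EGR1 and 4494 for IER2. These 7 genes are among the shortest 10% of the table (up to 5406 bases), whose median ratio was -1.12 and of which 7.37% were at least 4-fold higher in CNBP RIP and 35.3% lower. Among the longest 10% the median was 0.99. The table was cut into 10 classes of span, and set against the median of its own class JUND was at 4.998, EGR1 at 3.25, FOSL2 at 2.51, IER2 at 2.32, JUN at 2.17 and FOS at 1.56. FOSL1, in the next class, was at -0.04, and IER3 was at -1.32. The 7 short genes therefore lay on both sides of their size class, with IER3 alone below its median. The part of gene size in any single ratio was not tested.

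**Figure D3:**
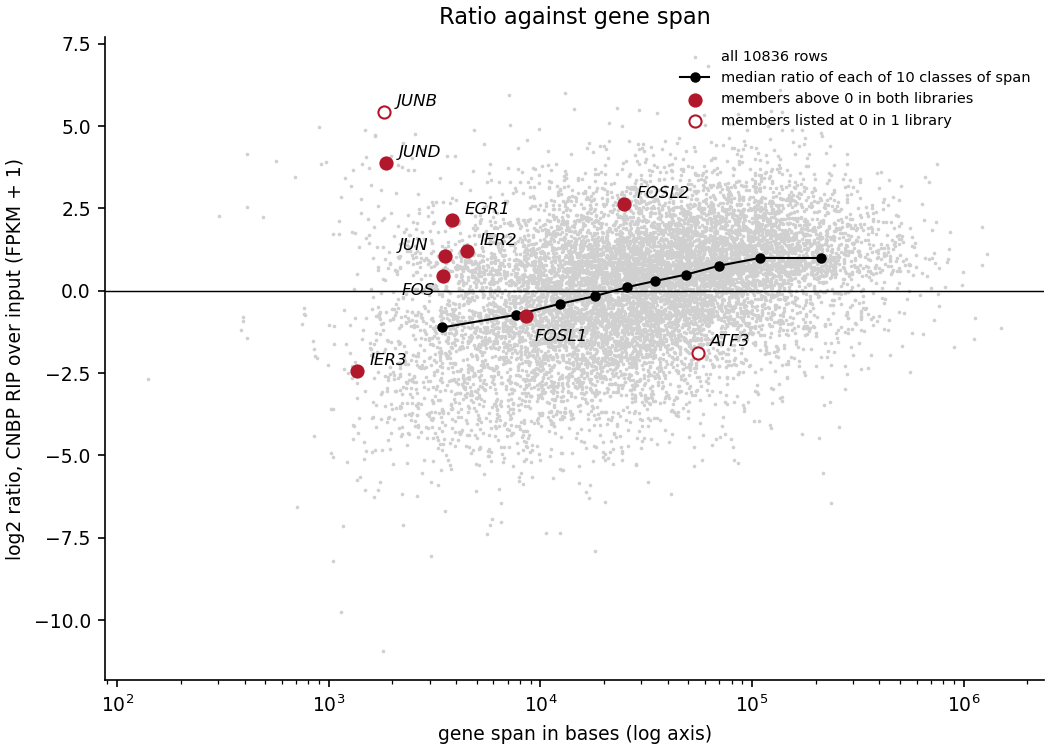
Log2 ratio of CNBP RIP over input against gene span in bases (log axis), for all 10836 rows (gray), the median of each of 10 classes of span (black) and the 10 members (red, open where 1 library is listed at 0). The black line runs between -1.12 at the shortest genes and 0.99 at the longest, and JUND, EGR1, IER2, JUN and FOS lie above its left end.

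The 5 members with GGAG in the first 50 bases were the 3 JUN genes, EGR1 and IER2. As deposited all 5 were at least 1.5-fold higher in CNBP RIP, where 42.6% of all rows were, JUNB from a value of 0 in input RNA. With a pseudocount of 5, JUN fell short of that rule (0.50). Of the 3 members with a window and no GGAG in those 50 bases, FOSL2 had a ratio of 2.62, FOS had 0.45 and ATF3 was listed at 0 in CNBP RIP. As deposited FOSL2, without the core in that window, had a higher ratio than EGR1, IER2 and JUN, which hold it. Against genes of like span EGR1 (3.25) was above FOSL2 (2.51), while IER2 (2.32) and JUN (2.17) were still below FOSL2. With 8 genes, and GGAG found in 51.8% of the genes of the table with a window, no more than this side-by-side reading is given.

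To place the members among genes with the most similar pair of levels, the 2 nearest other genes were found for each member above 0 in both libraries, by the distance in log2(FPKM + 1) over the 2 libraries. For JUND these were HSPA1B, a heat shock gene induced by stress (249 FPKM in CNBP RIP and 18.6 FPKM in input RNA), and CPOX, a heme synthesis gene (262 FPKM in CNBP RIP and 11.3 FPKM in input RNA). For IER3 they were the glycolytic gene ALDOA (52.3 FPKM in CNBP RIP, 299.9 FPKM in input RNA) and the superoxide dismutase gene SOD1 (45.9 FPKM in CNBP RIP, 305 FPKM in input RNA). For EGR1 they were NCAPG2 and OLFM2, for JUN IQCD and FNDC4, for FOS ARSB and C5orf22, for FOSL1 H2AFV and SNRNP25, and for IER2 PAGR1 and R3HCC1. Distances were at most 0.50, the value for CPOX. HSPA1B has a near-identical copy in the genome, so its value is uncertain.

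Other genes of the pathway were then read from lists, over genes whose mean FPKM was at least 1. Among the 8509 genes of the table with that mean, 15.9% were at least 4-fold higher in CNBP RIP and 17.2% lower, 43.5% were at least 1.5-fold higher and 36.6% lower, and the median ratio was 0.22. This filter favors genes that are high in 1 library. Of the 8509 genes, 1952 passed it with under 1 FPKM in input RNA, 95.2% of them higher by the 1.5-fold rule, while 1036 passed with under 1 FPKM in CNBP RIP, 92.3% of them lower. The list counts are therefore descriptions of the genes that passed. The list of AP-1 and related leucine zipper factors had 5 such genes besides the members, and 2 were at least 4-fold higher. They were MAFG, with 27.7 FPKM in CNBP RIP and 1.23 FPKM in input RNA (3.68), and MAFK, with 28.2 FPKM in CNBP RIP and 2.49 FPKM in input RNA (3.07). Both encode small MAF proteins, which pair with the NFE2-related factors. BATF3, a partner of JUN proteins in immune cells, was at -1.20, with 0.773 FPKM in CNBP RIP and 3.08 FPKM in input RNA. It therefore passed the filter through input RNA only. FOSB, BATF and ATF2 had no row.

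The other immediate early transcription factors were split. Of 15 besides EGR1 and IER2, 3 were at least 4-fold higher in CNBP RIP and 3 lower, 7 at least 1.5-fold higher and 7 lower, with a median of 0.23 beside the 0.22 of all genes with that mean. The higher end was made up of NAB1 (3.51) and NAB2 (2.95), which encode corepressors that bind the EGR1 protein, and of SOX4 (3.35). NAB1 had 15.7 FPKM in CNBP RIP and 0.464 FPKM in input RNA, and NAB2 had 61.5 FPKM in CNBP RIP and 7.09 FPKM in input RNA. NAB1 therefore passed the filter through CNBP RIP only. At the lower end were the helix-loop-helix inhibitors ID3 (-2.96) and ID1 (-2.48), and CEBPD, which was listed at 0 in CNBP RIP beside 10.4 FPKM in input RNA. CEBPD passed the filter through input RNA only. Among the 11 genes of this list with at least 1 FPKM in both libraries, 2 were at least 4-fold higher and 2 lower, where 10.6% and 16.6% of all such genes were. ID1 had 82.98 FPKM in CNBP RIP and 469 FPKM in input RNA. EGR2, EGR3 and EGR4 had no row.

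Immediate early genes of other function numbered 29 besides IER3. By the rules of size, 4 were at least 4-fold higher and 2 lower, and the median was 0.51. At 1.5-fold 14 were higher and 7 lower, where 43.5% and 36.6% of all genes with that mean were. Of the 14, 4 passed the filter through CNBP RIP only. The 4-fold count moved with the setting, as did the share of all rows. With IER3 kept in the list, 4 genes were at least 4-fold higher as deposited, where 12.5% of all rows were. The count was 10 with both libraries brought to the mean of the 2 sums, where 22.6% were. It was 1 with a pseudocount of 5, where 3.09% were. DUSP5, a phosphatase that acts on ERK in the nucleus, had 77.1 FPKM in CNBP RIP and 9.77 FPKM in input RNA (2.86). TOB2, an antiproliferative gene, had 12.9 FPKM in CNBP RIP and 1.07 FPKM in input RNA (2.75). RHOB, a small GTPase gene, had 11.7 FPKM in CNBP RIP and was listed at 0 in input RNA. PHLDA2 lay at -2.38, next to IER3, and ARC was listed at 0 in CNBP RIP and had 5.90 FPKM in input RNA.

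**Figure D4:**
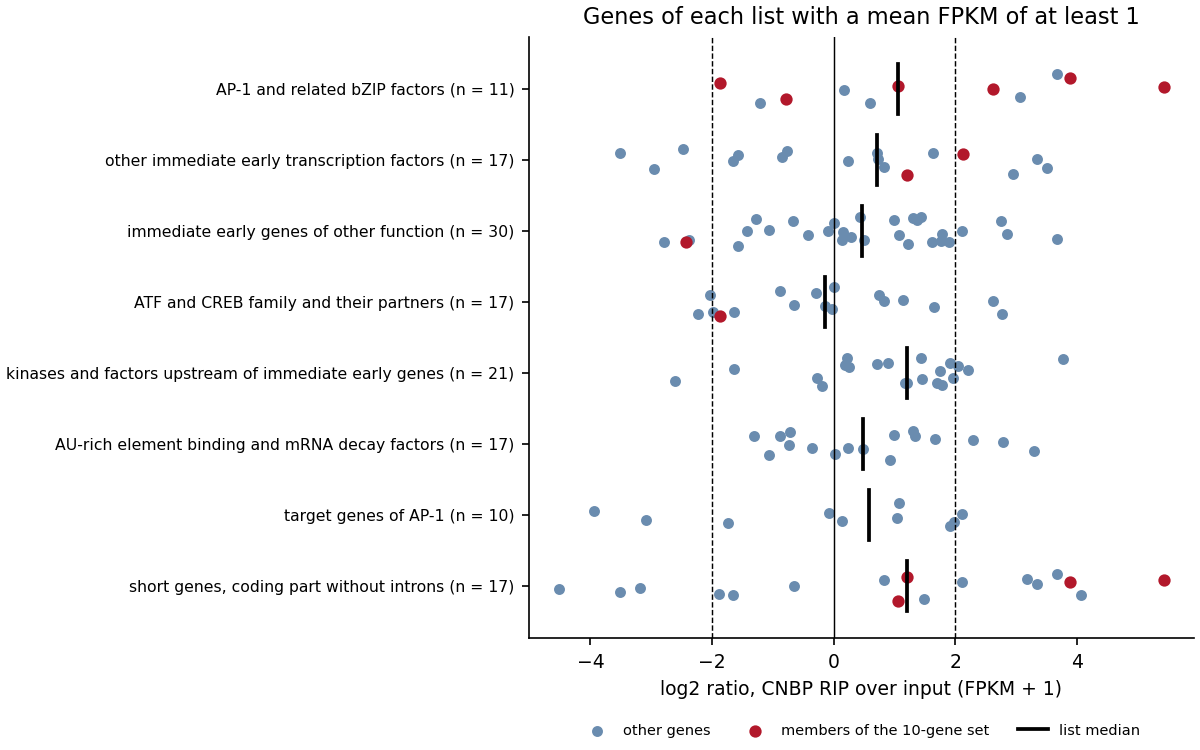
Log2 ratio of CNBP RIP over input for the genes of 8 lists whose mean FPKM was at least 1, with members of the 10-gene set in red, other genes in blue, the list median as a black bar and the 4-fold rule as dashed lines. Genes listed at 0 in 1 library are plotted on the FPKM plus 1 scale, and each list has genes on both sides of 0.

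The kinases and factors upstream of these genes were next. Of the 21 that passed, 14 were at least 1.5-fold higher and 2 lower, with 3 at least 4-fold higher and 1 lower, and the median was 1.21. Of the 14, 5 passed the filter through CNBP RIP only. Over all 24 rows of the list, with no filter, 15 were at least 1.5-fold higher and 2 lower, where 42.6% and 34.7% of all rows were. Among the 15 with at least 1 FPKM in both libraries 9 were higher and 2 lower, where 33.4% and 39.2% of all 5521 such genes were. The count at least 4-fold higher was 11 with both libraries brought to the mean of the 2 sums, where 22.6% of all rows were, and 1 with ratios centered on the median row, where 9.1% were. SRF, the serum response factor itself, had 33.6 FPKM in CNBP RIP and 1.52 FPKM in input RNA (3.78). The 2 MEK genes that act on ERK differed, with MAP2K1 at 2.21 (23.5 FPKM in CNBP RIP, 4.30 FPKM in input RNA) and MAP2K2 at -1.63 (11.7 FPKM in CNBP RIP, 38.4 FPKM in input RNA). MAPK3, which encodes ERK1, was lowest at -2.60, with 2.89 FPKM in CNBP RIP and 22.6 FPKM in input RNA.

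The ATF and CREB list, with the coactivators of its factors, had a median of -0.08 over 16 genes besides ATF3. At the 4-fold rule, 2 were higher and 2 lower. The median of the list with ATF3, -0.14, turned to 0.62 with both libraries brought to one sum, and among the lists taken with their members it was the only median to change sign on rescaling or centering. The large coactivator genes CREBBP (2.77) and EP300 (2.63), which encode acetyltransferases, were highest, and the stress response factors DDIT3 (-2.22) and ATF4 (-2.03) were lowest. CREBBP had 7.48 FPKM in CNBP RIP and 0.246 FPKM in input RNA, and EP300 had 6.11 FPKM and 0.152 FPKM. Both therefore passed the filter through CNBP RIP only. Among the 11 genes with at least 1 FPKM in both libraries, 0 were at least 4-fold higher and 2 lower, where 10.6% and 16.6% of all such genes were. ATF4, which induces ATF3 under stress, had 47.2 FPKM in CNBP RIP and 196 FPKM in input RNA. ATF1 was listed at 0 in CNBP RIP, as was ATF3.

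Factors that bind AU-rich elements or remove poly(A) tails had a median of 0.49 over 17 genes, with 3 at least 4-fold higher in CNBP RIP and 0 lower. The deadenylase complex genes CNOT6 (3.31) and CNOT1 (2.79) were highest, and CNOT6, at 0.409 FPKM in input RNA, passed the filter through CNBP RIP only. ZFP36, the immediate early gene of an AU-rich element binding protein that promotes decay, was at -1.07, and CNOT10 was at -1.31. Known target genes of AP-1 had a median of 0.59 over 10 genes, with 1 at least 4-fold higher and 2 lower. Over all 14 rows of that list, with no filter, the median was 0.03. CCND1, the cyclin D1 gene that the study followed, was highest at 2.12, followed by the integrin gene ITGA2 at 1.99. ITGA2, at 0.158 FPKM in input RNA, passed the filter through CNBP RIP only. GSTP1 (-3.94) and TIMP1 (-3.09) were lowest. MMP1, MMP3 and MMP7 had no row.

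As JUN, JUNB, JUND and IER2 are short genes with a coding part free of introns, they were set beside 13 other genes of that kind. The 13 comprised 5 genes at least 4-fold higher in CNBP RIP and 3 lower, 7 at least 1.5-fold higher and 6 lower, and the median was 0.82. Among the 7 of them with at least 1 FPKM in both libraries the median was -0.65, where that of all such genes was -0.10. SOX4 was at 3.35 and FOXC1 at 2.11, whereas RHOG was at -3.18 and the histone gene H2AFX at -1.88. In this list 3 genes besides JUNB, namely RHOB, H1FX and CLDN3, were listed at 0 in input RNA, and CEBPD and CLDN4 were listed at 0 in CNBP RIP. Listing at 0 was thus found in either direction among such genes. In the whole table, 37.6% of the rows at 0 in input RNA and 16.9% of those at 0 in CNBP RIP were among the shortest 10% by span.

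The order of the members was then compared across settings. Among the 8 members above 0 in both libraries, JUND was highest and IER3 lowest in every setting plotted. JUND, EGR1 and IER2 stayed above 0.58 in all settings run, EGR1 between 1.31 and 3.42 and IER2 between 0.92 and 2.32. FOSL2 lay between 1.42 and 4.23, also above 0.58, in the settings that kept it, as the filter of 1 FPKM in both libraries left it out. JUN lay between 0.50 and 2.30, and FOS between 0.12 and 1.81. With no replicate, differences between neighbors in this order could not be tested.

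**Figure D5:**
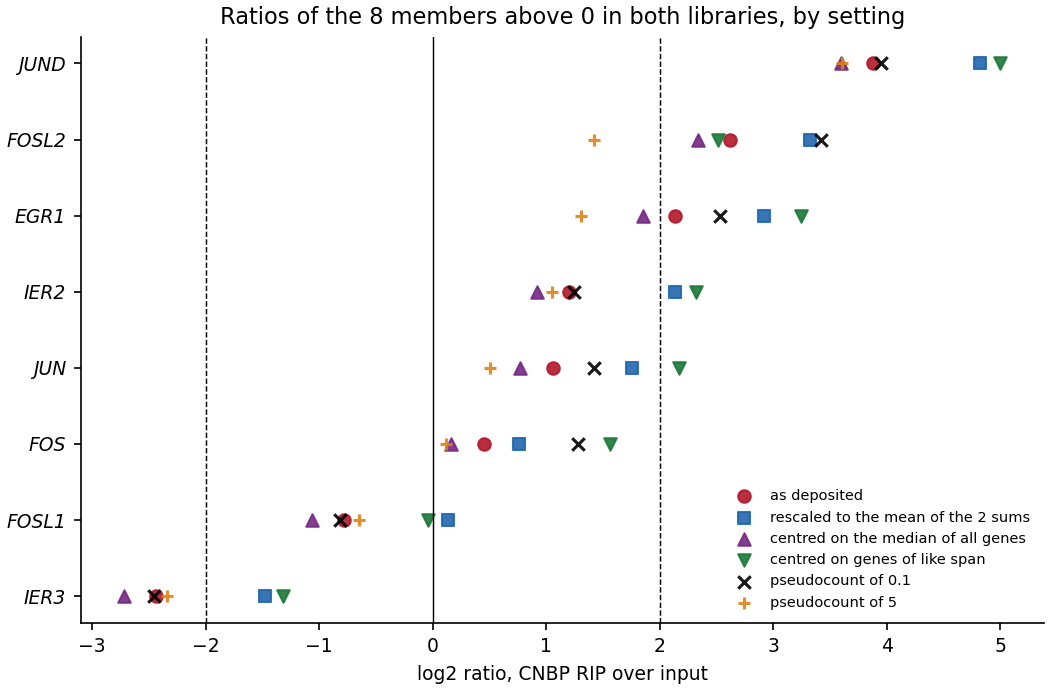
Log2 ratio of CNBP RIP over input for the 8 members above 0 in both libraries, with 1 symbol for each of 6 settings and dashed lines at the 4-fold rule. JUND lies furthest right and IER3 furthest left in each setting, and only FOSL1 has symbols on both sides of 0.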

How the data were processed

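One CNBP RIP and 1 input library of HCT116 cells were analyzed. Values are FPKM per gene as deposited by the authors, whose processing notes list HISAT2, StringTie, cutadapt and FastQC (no versions or roles) and genome build hg19. There were 10836 protein-coding rows, each with at least 0.500 FPKM in 1 library, so genes scarce in both could not enter. The read depth is unknown, hence no interval is given.

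Log2 ratios used a pseudocount of 1, which understates ratios of low genes, and percentages of rows were taken over the whole table. All 10 members were named, and of each of 8 lists the 2 highest and 2 lowest genes above 0 in both libraries and those at 0 in 1 library, with a mean FPKM of at least 1. A few others (MAFK, NAB2, FOXC1, neighbors, genes without a row) were chosen after their values were seen. Members and lists were chosen with earlier results of these data known. Alternatives were pseudocounts of 0.1, 0.5 and 5, rescaling, centering, filters on FPKM (2 for the lists added after the data were seen) and summing of shared symbols. Scripts (Python 3.11.15, pandas 2.3.3, numpy 2.4.6) were tested on simulated data. The genes nearest in level to FOSL2 are not reported here.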

Additional observations from a re-analysis of the deposited data

How the results depend on the processing

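No paired analysis was possible because there was 1 library per group. The count of members at least 4-fold higher in CNBP RIP was 4 as deposited. It was 2 with a pseudocount of 5, where 3.09% of all rows were, and 2 among rows with at least 1 FPKM in both libraries, which leaves 6 members and where 10.6% of rows were. It was 6 after rescaling to a sum of 1000000, where 39.4% of all rows were, and 6 after centering on genes of like span, where 9.78% were. It was 3 after centering on the median of all genes, where EGR1 fell short and 9.1% of all rows were. The count at least 4-fold lower was 1 as deposited, where 13.5% of all rows were. It was 2 with a pseudocount of 0.1 or 0.5, where ATF3, listed at 0 in CNBP RIP, was added, beside 22.7% and 16.6% of all rows. It was also 2 after centering on the median of all genes, where 16.1% were. It was 0 after rescaling to the mean of the sums, with or without the 20 most abundant genes of either library, where 8.18% and 8.68% were. The median ratio of 1.13 was 2.25 after rescaling to a sum of 1000000, where that of all rows was 1.30, and 2.25 after centering on genes of like span, where that of all rows was 0. FOSL1, at -0.78 as deposited, was at 0.14 after rescaling to either sum and at 0.031 without the 20 most abundant genes. No other member changed sign in any setting. The counts of members at 1.5-fold stayed within 1.5 times the main ones in all settings run, while the shares of all rows moved. With a pseudocount of 5, 5 were higher and 3 lower, where 23.5% and 22.5% of all rows were. After rescaling to a sum of 1000000, 7 were higher and 2 lower, where 59.5% and 26.9% were. Of the 6 members with at least 1 FPKM in both libraries, 4 were higher and 2 lower, where 33.4% and 39.2% of such rows were. The lists moved more. At a sum of 1000000, 13 of the 21 upstream kinases and factors and 14 immediate early genes of other function, with IER3, were at least 4-fold higher. With a pseudocount of 5, 1 of each was. With 1 FPKM or more required in both libraries, a setting chosen after seeing the data, the median of the short genes without introns besides the members turned from 0.82 to -0.65. That of all genes turned from 0.22 to -0.10. The unknown depth limits what the values of 0 can say.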
